A study of Homo sapiens with 6 samples.

Results

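The matrix glycoproteins and laminins described here are 10 non-collagen genes of the extracellular matrix: the fibrillin gene FBN1, the matricellular genes POSTN, SPARC, THBS1 and TNC, the fibronectin gene FN1, and the basement membrane genes LAMA4, LAMB1, LAMC1 and NID1. They were chosen by name from the listed matrix genes other than collagens, with earlier results of these data known. The rule uses no measured difference, and other listed genes of that kind are not members. Being listed was part of the rule, so all 10 are among the 11387 genes with listed values. All 10 also reached the minimum for testing, a mean over the 6 libraries of 1 FPKM, as did 10475 genes in all. By their labels, the libraries came from the human ocular melanoma line 92.1. In 3 of them ALKBH3 was knocked down (shALKBH3), and 3 are controls labelled NC with a wild-type genotype. ALKBH3 is a demethylase that repairs alkylation damage in DNA and acts on 1-methyladenosine in RNA, and the comparison asked how expression differs after its knockdown. The labels give neither the hairpin sequence nor the number of hairpins, and do not say whether NC cells carried a control hairpin or whether the 3 samples of a group were separate cultures. The spread that the p-values rest on is that between these samples, and it may be technical.

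The extracellular matrix is the network of secreted proteins that cells attach to. Fibrillin builds microfibrils, fibronectin forms fibrils that cells bind through integrins, and laminins are trimers of an alpha, a beta and a gamma chain that lay down the basement membrane sheet, which nidogen links to type IV collagen. Matricellular proteins such as thrombospondin, periostin, SPARC and tenascin-C are secreted into the matrix and alter how cells interact with it, and melanoma cells are known to make many of them.

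The values are fragment counts scaled to transcript length and library size (FPKM), deposited per transcript by the authors and summed here over the listed transcripts of each gene. ALKBH3 was at 3.71 ± 0.487 FPKM in shALKBH3 libraries and 10.1 ± 0.787 FPKM in NC libraries (SD, n = 3 each), with no overlap between the groups. Listed FPKM summed to between 326875 and 333987 in shALKBH3 libraries and between 340950 and 361268 in NC libraries, and read depth is unknown. Of 9 melanocyte markers MITF was the one found among the transcripts analysed here (11.8 ± 1.95 FPKM in shALKBH3 and 6.91 ± 3.24 FPKM in NC, SD, n = 3 each). SOX10, PMEL, MLANA, TYR, DCT, TYRP1, GPM6B and S100B were not found among them. Every listed transcript has a higher group mean of at least 0.5 FPKM, and whether these markers lay below that was not tested. Of the 9 markers MITF alone was thus found, and the melanocytic origin is taken from the labels. Of 9 fibroblast and pericyte markers 5 were listed, with sums of 53.3 to 61.4 FPKM in shALKBH3 and 54.3 to 70.3 FPKM in NC. Most of each sum was ACTA2 (means of 32.4 FPKM in shALKBH3 and 31.5 in NC) and COL1A1 (22.0 and 21.3). PDGFRB was at 3.61 and 3.36 FPKM, COL1A2 at 0.464 and 2.83, and COL3A1 at 0.248 and 2.25. PDGFRA, DCN, LUM and THY1 were not found. None of 5 endothelial or 4 epithelial markers was found. Of 5 leukocyte markers CD68 and CSF1R were listed, and PTPRC, CD14 and CD3E were not. CSF1R averaged below the minimum of 1 FPKM and was not tested. CD68, which is also made outside leukocytes, was higher in shALKBH3 (36.1 ± 2.04 against 16.3 ± 2.23 FPKM, SD, n = 3 each, limma adjusted p = 0.010). What part such cells could have in the matrix values was not tested. In RNA from whole cultures, more RNA per cell and more cells of a type cannot be told apart.

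The members spanned a wide range of levels. Per length, SPARC was the most abundant in both groups, at 219 ± 10.2 FPKM in shALKBH3 and 306 ± 10.6 FPKM in NC (SD, n = 3 each), and ranked 167 among the 10475 tested genes by mean. THBS1, FN1 and POSTN followed, then the laminin chains LAMB1, LAMA4 and LAMC1 and the fibrillin gene FBN1 (rank 1788). TNC and NID1 were the lowest, at ranks 4379 and 4882. SPARC and THBS1 overlapped in the shALKBH3 libraries (210 to 230 and 206 to 216 FPKM) but not in the NC libraries (294 to 313 and 144 to 175 FPKM). LAMA4 and LAMC1 overlapped in both groups, as did TNC and NID1.

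**Figure D1:**
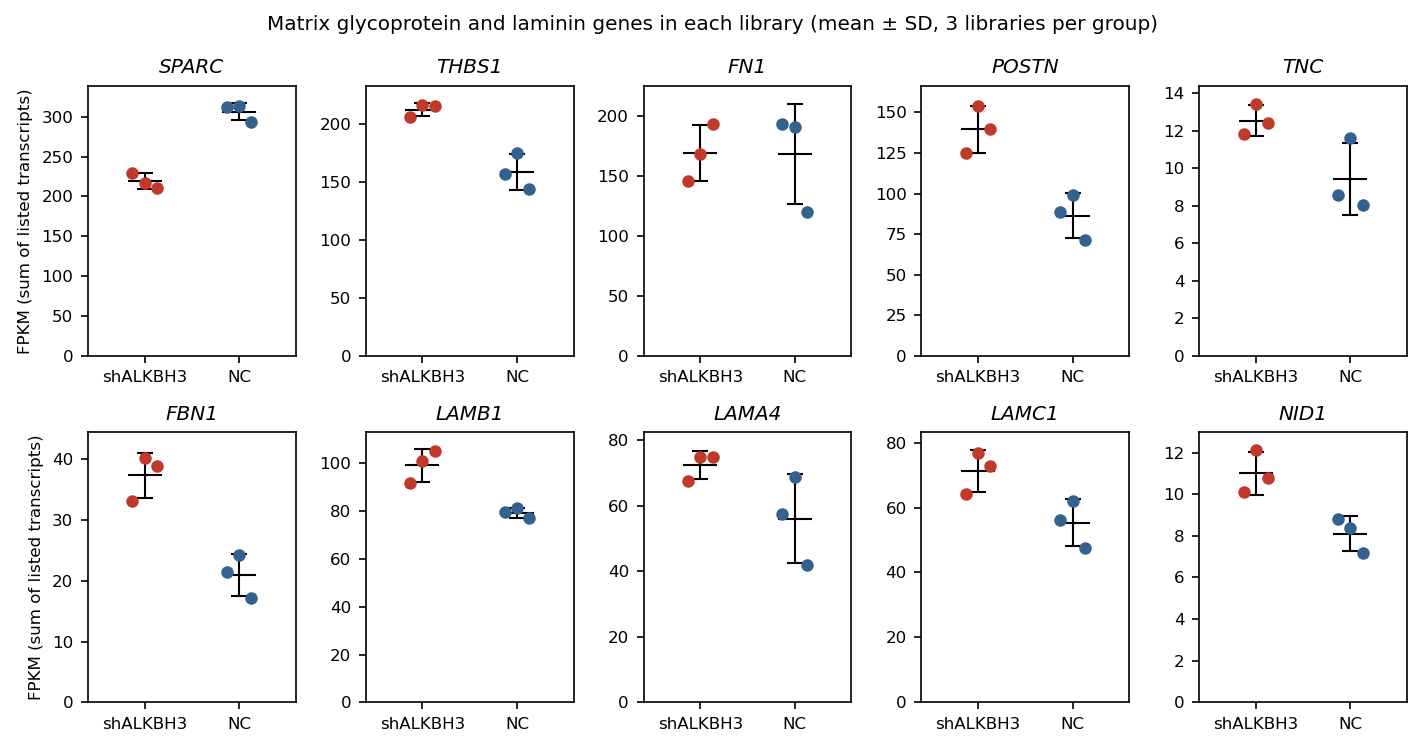
FPKM of each of the 10 genes in each library (points), with the group mean and SD (3 libraries per group), on axes that start at 0. SPARC lies lower in all 3 shALKBH3 libraries, FN1 and LAMA4 overlap between the groups, and the other 7 genes lie higher in all 3 shALKBH3 libraries.

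Of the 10 genes, SPARC alone passed the test, downward, and none passed upward. The threshold was a limma adjusted p of 0.05 over all 10475 tested genes, which 1.28% of them passed upward and 0.477% downward. At an unadjusted p under 0.05, 7 of the 10 were higher and 1 was lower, where 8.98% of all tested genes were higher and 8.15% lower. The same 7 genes, FBN1, POSTN, THBS1, TNC, NID1, LAMB1 and LAMC1, had 3 shALKBH3 libraries above all 3 NC libraries, and SPARC had all 3 below. Among all tested genes 12.9% were separated upward and 12.0% downward. The median log2 difference of the 10 genes was 0.39, and that of all tested genes -0.00958.

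Transcript length, GC content and single libraries moved with these differences. The members are long, with a median transcript length of 5802 nucleotides against 2882 over all tested genes. Log2 differences followed length across the 10475 genes (Spearman rho = 0.35, genes not being independent replicates). With GC content the rho was -0.31. The 2089 tested genes of at least 5000 nucleotides had a median log2 difference of 0.11, and 21.8% of them were separated upward. NC replicate 3 had the lowest values for long genes (rho of its deviation with length -0.41) and the lowest level of every member in any library, SPARC excepted. The same rho was 0.03, 0.32 and 0.27 in shALKBH3 replicates 1, 2 and 3. In NC replicates 1 and 2 it was -0.18 and 0.08, so the trend did not lie in NC replicate 3 alone. With length and GC content fitted and subtracted in each library, the median of the members was 0.30; their part in the differences was not tested otherwise. The same 7 genes were then separated upward (13.4% of all genes were) and SPARC downward (12.3%). Without NC replicate 3 the median was also 0.30, and at an unadjusted p under 0.05 there were 5 higher, FBN1, POSTN, THBS1, LAMB1 and NID1, against 7.03% of all genes.

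**Figure D2:**
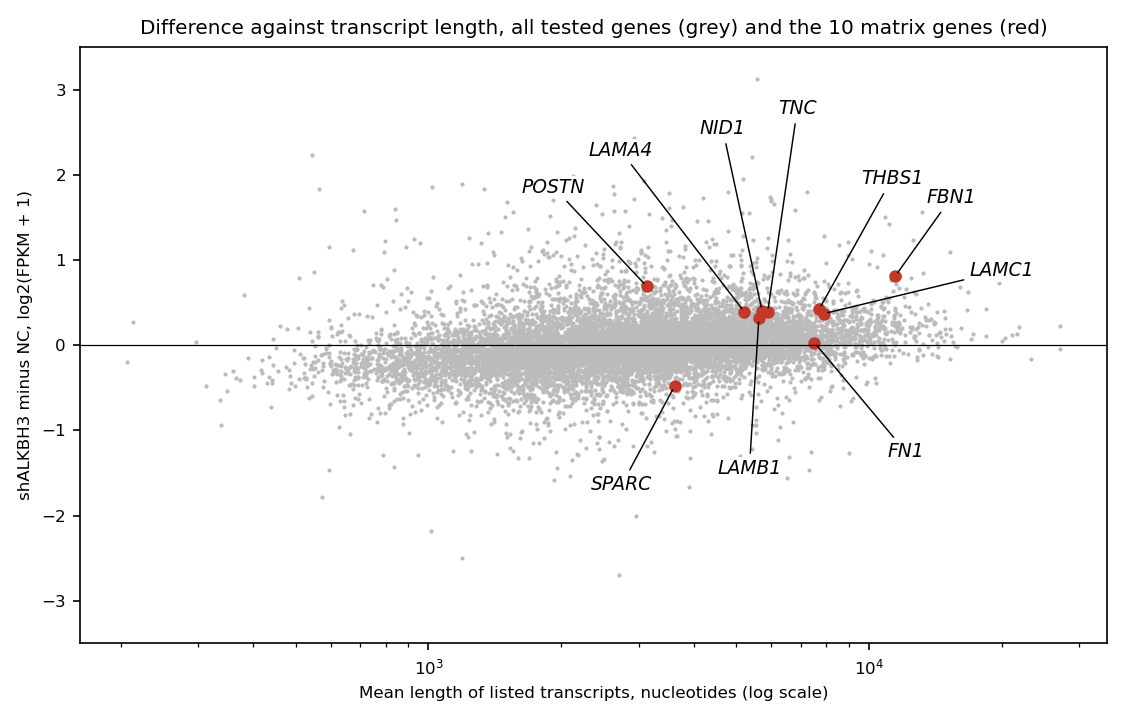
Log2 difference between shALKBH3 and NC (vertical axis) against mean transcript length in nucleotides (log axis) for all tested genes (grey points) and the 10 matrix genes (red points, named). FBN1, the longest of the 10 at 11462 nucleotides, has the highest difference of them at 0.81, and SPARC is the one that lies below 0.

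SPARC fell. It encodes a calcium-binding secreted glycoprotein that binds collagen and counters cell spreading. Its values were 230, 217 and 210 FPKM in shALKBH3 replicates 1, 2 and 3, against 312, 313 and 294 FPKM in NC replicates 1, 2 and 3. Every shALKBH3 library was below every NC library, and the gap between the groups was wider than the range within either. The shALKBH3 mean was 0.715 times the NC mean, a log2 change of -0.48 (95% interval -0.65 to -0.32, limma adjusted p = 0.030). The SPARC-201 transcript, of 10 exons, carried 96.4% of the gene's FPKM in shALKBH3 and 98.0% in NC. That transcript was at 223, 209 and 202 FPKM in shALKBH3 replicates 1, 2 and 3, against 306, 306 and 289 FPKM in NC replicates 1, 2 and 3. The direction was downward in every alternative tried, but the call depended on having 3 libraries per group: without any 1 library the adjusted p lay between 0.068 and 0.14. It also missed the threshold when each library was rescaled to the same total (adjusted p = 0.065), under quantile normalization (0.061) and without the variance trend (0.070), and passed after the length and GC correction with all libraries (log2 -0.54, adjusted p = 0.011). With the correction but without NC replicate 3 it lay just above the threshold (log2 -0.55, adjusted p = 0.050).

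FBN1, which encodes the main protein of microfibrils, had the highest positive difference among the members without passing. It was at 33.1, 40.1 and 38.8 FPKM in shALKBH3 replicates 1, 2 and 3, against 21.4, 24.2 and 17.2 FPKM in NC replicates 1, 2 and 3. The lowest shALKBH3 library lay well above the highest NC library. The log2 difference was 0.81 (95% interval 0.46 to 1.16, limma adjusted p = 0.060), or 1.78 times the NC mean on the FPKM scale. It passed after the length and GC correction (log2 0.66, adjusted p = 0.026) and with a minimum mean of 5 FPKM (adjusted p = 0.048). With the correction but without NC replicate 3 it did not pass (log2 0.59, adjusted p = 0.068), and leaving out 1 library without the correction gave adjusted p-values of 0.068 to 0.21. FBN1-201, the full-length transcript of 66 exons, carried 96.5% of the gene's FPKM in shALKBH3 and 95.5% in NC. FBN2, another fibrillin gene, had a log2 difference of 0.39 and did not pass.

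POSTN, which encodes periostin, a matricellular protein that binds fibronectin and collagen, had values of 125, 154 and 140 FPKM in shALKBH3 replicates 1, 2 and 3. In NC replicates 1, 2 and 3 they were 88.5, 99.2 and 71.6 FPKM. The groups did not overlap, and the log2 difference was 0.69 (95% interval 0.35 to 1.04, limma adjusted p = 0.088). THBS1, which encodes thrombospondin-1, an activator of latent TGF-beta, was at 206, 216 and 215 FPKM in shALKBH3 replicates 1, 2 and 3, against 157, 175 and 144 FPKM in NC replicates 1, 2 and 3. Its 3 shALKBH3 libraries lay close together and above every control. The log2 difference was 0.42 (95% interval 0.21 to 0.64, adjusted p = 0.088), and it passed after the length and GC correction (log2 0.29, adjusted p = 0.035) but not with the correction and without NC replicate 3 (log2 0.28, adjusted p = 0.11). TNC, which encodes the hexameric glycoprotein tenascin-C, was at 11.8, 13.4 and 12.4 FPKM in shALKBH3 replicates 1, 2 and 3, against 8.59, 11.6 and 8.03 FPKM in NC replicates 1, 2 and 3. NC replicate 2 lay just below the lowest shALKBH3 library, and the log2 difference was 0.39 (95% interval 0.04 to 0.75, adjusted p = 0.26). Taken from its most abundant transcript alone it was 1.16 (adjusted p = 0.52).

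FN1, which encodes fibronectin, showed no separation. It was at 146, 168 and 193 FPKM in shALKBH3 replicates 1, 2 and 3, against 193, 191 and 120 FPKM in NC replicates 1, 2 and 3. The lowest library was a control and the highest values were shared by both groups. The means were 169 ± 23.4 FPKM in shALKBH3 and 168 ± 41.6 FPKM in NC (SD, n = 3 each), with a log2 difference of 0.03 (95% interval -0.48 to 0.54, limma adjusted p = 0.95). Its sign turned with several settings: the log2 difference was -0.07 after the length and GC correction and -0.19 without NC replicate 3. The interval includes changes as large as that of SPARC, so these libraries do not show that FN1 stayed level.

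**Figure D3:**
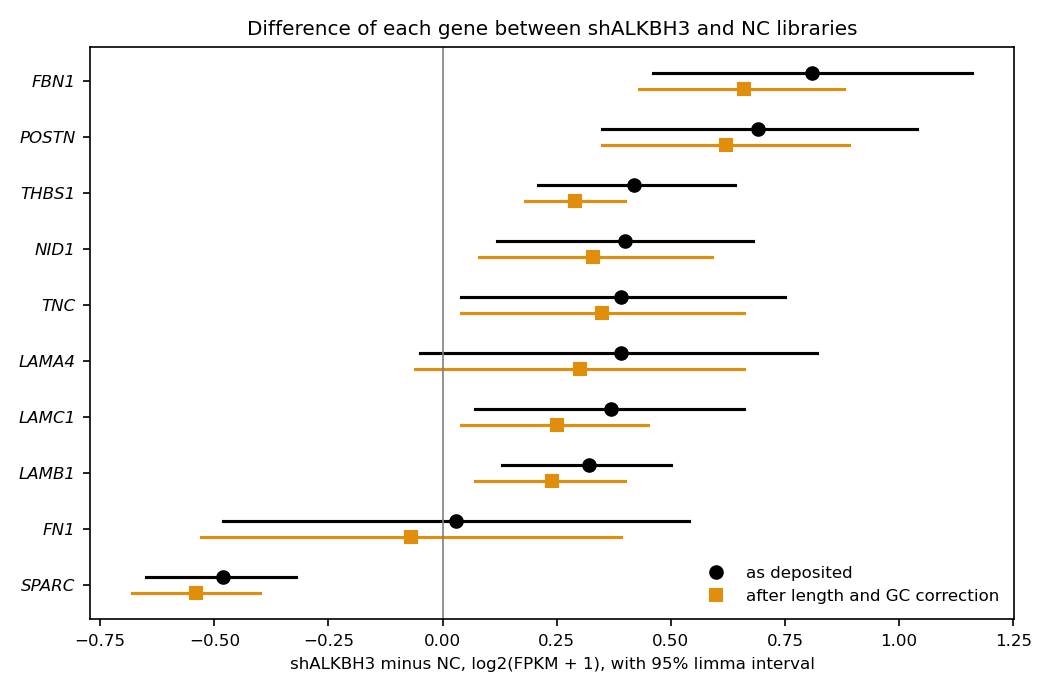
Log2 difference of each gene between shALKBH3 and NC libraries with its 95% limma interval, from the deposited values (black circles) and after the correction for transcript length and GC content (orange squares). The order of the genes runs from FBN1 at 0.81 to SPARC at -0.48, and the intervals of FN1 and LAMA4 include 0 in both fits.

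The 3 laminin chains and nidogen had small positive differences of like size, none past the threshold. LAMB1, the beta-1 chain, was at 91.6, 101 and 105 FPKM in shALKBH3 replicates 1, 2 and 3, against 79.6, 81.2 and 77.2 FPKM in NC replicates 1, 2 and 3. The control values were close together and all below the knockdown values, and the log2 difference was 0.32 (95% interval 0.13 to 0.50, limma adjusted p = 0.12). LAMC1, the gamma-1 chain found in most laminin trimers, was at 64.3, 76.8 and 72.7 FPKM in shALKBH3 replicates 1, 2 and 3, against 56.2, 62.1 and 47.6 FPKM in NC replicates 1, 2 and 3. The lowest shALKBH3 and highest NC libraries nearly met, and the log2 difference was 0.37 (95% interval 0.07 to 0.66, adjusted p = 0.22). LAMA4, the alpha-4 chain of vascular and mesenchymal basement membranes, was at 67.4, 74.9 and 74.7 FPKM in shALKBH3 replicates 1, 2 and 3, against 57.3, 68.8 and 42.0 FPKM in NC replicates 1, 2 and 3. NC replicate 2 exceeded the lowest shALKBH3 library, and the log2 difference of 0.39 had an interval that includes 0 (-0.05 to 0.82, adjusted p = 0.33); it was 0.20 without NC replicate 3 and 0.78 with the most abundant transcript (adjusted p = 0.42). NID1, which encodes nidogen-1 and binds the gamma-1 chain, was at 10.1, 12.1 and 10.8 FPKM in shALKBH3 replicates 1, 2 and 3, against 8.79, 8.36 and 7.16 FPKM in NC replicates 1, 2 and 3. Its groups did not overlap, with a log2 difference of 0.40 (95% interval 0.12 to 0.68, adjusted p = 0.18).

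Because FPKM are per length, the chains of a laminin trimer can be set side by side. LAMA4 and LAMC1 were listed at nearly the same level, with a mean LAMA4 to LAMC1 ratio of 1.02 in shALKBH3 and 1.00 in NC. The LAMA4 sum pools 12 listed transcripts, some of them short and incomplete models, while LAMC1 has 1. Of these, LAMA4-204 (672 nucleotides) carried 8.7% of LAMA4 FPKM in shALKBH3 and 10.2% in NC. LAMB1 exceeded LAMC1, with a mean ratio of 1.40 in shALKBH3 and 1.45 in NC. NID1 was far below its binding partner, with a mean NID1 to LAMC1 ratio of 0.155 in shALKBH3 and 0.147 in NC. On the log2(FPKM + 1) scale the differences in these ratios between shALKBH3 and NC, and in that of LAMA4 to LAMB1, lay between -0.05 and 0.07. None was beyond the spread between libraries (two-sided exact permutation tests, p from 0.80 to 0.90, 0.90 each after adjustment over the 4 ratios). With 3 libraries against 3 such a test cannot give a p below 0.10. Taken from the most abundant transcript of each gene alone, the differences were wider: 0.55 for LAMA4 to LAMB1 (p = 0.10), 0.41 for LAMA4 to LAMC1 (p = 0.30), -0.43 for NID1 to LAMC1 (p = 0.10) and -0.14 for LAMB1 to LAMC1 (p = 0.50, unadjusted exact permutation tests). The ratio of LAMA4 to LAMB1 was -0.86 on the log2 scale in NC replicate 3, against -0.47 and -0.24 in NC replicates 1 and 2 and between -0.48 and -0.43 in shALKBH3.

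The gene sums of several members were divided among transcripts whose shares differed between libraries. The 10 genes have 50 listed transcripts, of which 36 reached a mean of 1 FPKM and were tested singly. None of the 36 passed a limma adjusted p of 0.05 over 19698 transcripts, of which 0.472% passed, while 7 were higher and 1 was lower at an unadjusted p under 0.05, against 4.99% and 4.75% of all tested transcripts. The transcripts of 1 gene share its locus and are not independent. Values of one transcript carry more doubt than the sum of a gene, because how fragments were divided among overlapping transcripts is not given in the sources used here.

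POSTN has a variable region near its carboxy end, and its transcripts differ by which exons of it they keep. POSTN-201, which encodes 779 residues, was the most abundant at 77.6 ± 9.38 FPKM in shALKBH3 and 48.6 ± 9.53 FPKM in NC (SD, n = 3 each). POSTN-202, which encodes 809 residues, was at 36.6, 39.0 and 25.7 FPKM in shALKBH3 replicates 1, 2 and 3, against 11.5, 11.8 and 12.9 FPKM in NC replicates 1, 2 and 3. All 3 shALKBH3 values of POSTN-202 were above all 3 NC values, with a log2 difference of 1.39 (95% interval 0.95 to 1.83, limma adjusted p = 0.063). It made up 24.2% of POSTN FPKM in shALKBH3 and 14% in NC. POSTN-209, by contrast, overlapped between the groups (24.4 ± 6.54 FPKM in shALKBH3, 22.4 ± 4.28 FPKM in NC, SD, n = 3 each). POSTN-204, which encodes 808 residues, went the other way at low levels. It was at 0.041, 0.0348 and 0.028 FPKM in shALKBH3 replicates 1, 2 and 3, against 2.17, 2.02 and 0.223 FPKM in NC replicates 1, 2 and 3. POSTN-203, also low, was higher in shALKBH3 (1.95 ± 1.03 against 0.0514 ± 0.0562 FPKM, limma adjusted p = 0.27). Whether the transcripts differed from each other in their change was not tested.

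NID1 has a pair of listed transcripts, and the difference in their sum lay in the shorter one. NID1-202, of 17 exons, was at 3.67, 4.66 and 5.81 FPKM in shALKBH3 replicates 1, 2 and 3, against 3.23, 0.00 and 1.13 FPKM in NC replicates 1, 2 and 3. NID1-201, of 20 exons, overlapped between the groups at 6.31 ± 1.23 FPKM in shALKBH3 and 6.65 ± 1.5 FPKM in NC (SD, n = 3 each). With NID1-201 in place of the sum the log2 difference of NID1 was -0.06. Among the LAMA4 transcripts, LAMA4-201 was at 21.7 ± 2.36 FPKM in shALKBH3 and 13.2 ± 5.81 FPKM in NC, and LAMA4-205 at 12.8 ± 1.03 FPKM in shALKBH3 and 13.5 ± 2.04 FPKM in NC (SD, n = 3 each). Neither passed. TNC was divided differently in nearly every library: TNC-211 was at 1.93, 8.46 and 7.72 FPKM in shALKBH3 replicates 1, 2 and 3 and 0.859, 0.777 and 5.58 FPKM in NC replicates 1, 2 and 3, and TNC-212 was listed above 0 in NC replicate 2 alone (6.81 FPKM). None of the 3 tested TNC transcripts passed (limma adjusted p from 0.64 to 0.90).

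**Figure D4:**
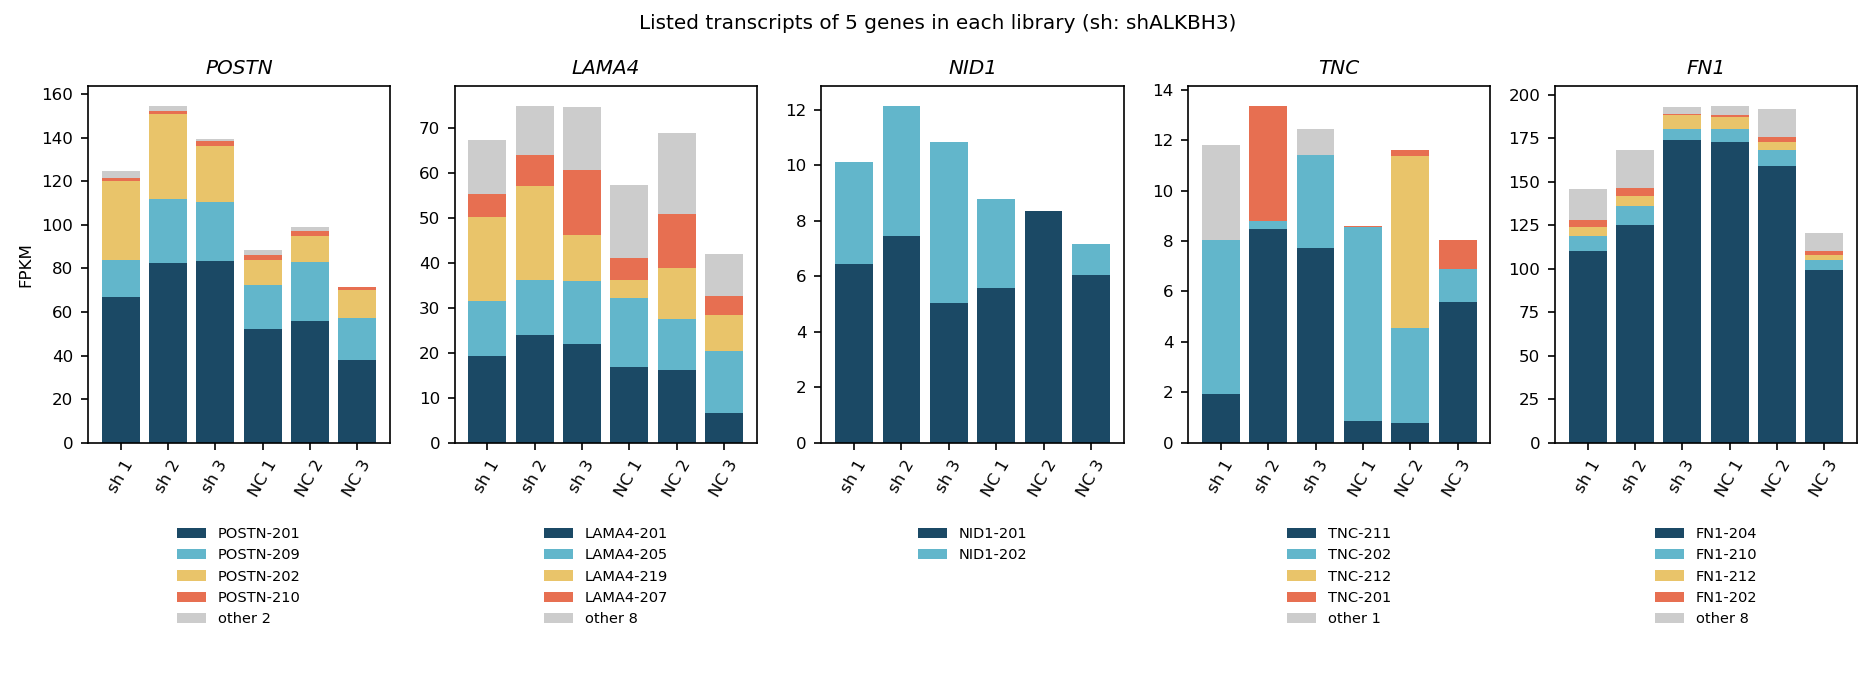
FPKM of the listed transcripts of POSTN, LAMA4, NID1, TNC and FN1 stacked in each library, with the 4 most abundant transcripts of a gene coloured and the others pooled in grey. The POSTN-202 segment is taller in the 3 shALKBH3 libraries, while the make-up of TNC differs from library to library within both groups.

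Fibronectin transcripts differ by the cassette exons for extra domains B and A, which are found in the cellular form and skipped in the plasma form. The exon of extra domain B encodes 91 residues and that of extra domain A 90. FN1-204, which skips both, carried 80.7% of FN1 FPKM in shALKBH3 and 85.4% in NC. Among listed transcripts that span the exon, those with extra domain A made up 14.6%, 15.1% and 4.94% of FPKM in shALKBH3 replicates 1, 2 and 3 and 4.94%, 10.0% and 10.4% in NC replicates 1, 2 and 3. Those with extra domain B made up 5.64%, 5.72% and 0.101% in shALKBH3 replicates 1, 2 and 3 and 0.3%, 3.75% and 3.37% in NC replicates 1, 2 and 3. For both exons shALKBH3 replicate 3 and NC replicate 1 were the lowest libraries, so the groups overlapped.

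The sequences just upstream of the members' starts are of different kinds. Promoters were taken from RefSeq on GRCh38.p14, which is another build than the one the submitters' notes name, and all 10 members matched by symbol. The 250 bases before the start are shown for the pair with the highest positive differences, FBN1 and POSTN, for SPARC, which fell, and for FN1, which did not separate. All 4 are on the minus strand and written 5′ to 3′ along the gene, at chr15:48644971-48645220 (FBN1), chr13:37598769-37599018 (POSTN), chr5:151686916-151687165 (SPARC) and chr2:215436069-215436318 (FN1). Capitals mark matches to any of the 6 motifs searched.
FBN1: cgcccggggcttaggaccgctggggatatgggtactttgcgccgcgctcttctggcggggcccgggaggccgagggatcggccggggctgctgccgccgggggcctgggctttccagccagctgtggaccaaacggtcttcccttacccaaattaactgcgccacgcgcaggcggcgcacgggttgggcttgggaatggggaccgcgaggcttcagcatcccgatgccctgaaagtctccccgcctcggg
POSTN: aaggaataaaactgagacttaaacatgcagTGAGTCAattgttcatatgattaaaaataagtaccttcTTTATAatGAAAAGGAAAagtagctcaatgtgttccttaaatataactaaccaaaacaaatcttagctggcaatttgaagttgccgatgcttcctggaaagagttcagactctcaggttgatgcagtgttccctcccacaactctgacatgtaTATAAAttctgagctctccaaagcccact
SPARC: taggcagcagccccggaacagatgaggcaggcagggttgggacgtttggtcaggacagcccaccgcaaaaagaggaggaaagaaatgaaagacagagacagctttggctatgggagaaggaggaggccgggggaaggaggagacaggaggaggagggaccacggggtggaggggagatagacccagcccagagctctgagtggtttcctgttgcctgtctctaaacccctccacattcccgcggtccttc
FN1: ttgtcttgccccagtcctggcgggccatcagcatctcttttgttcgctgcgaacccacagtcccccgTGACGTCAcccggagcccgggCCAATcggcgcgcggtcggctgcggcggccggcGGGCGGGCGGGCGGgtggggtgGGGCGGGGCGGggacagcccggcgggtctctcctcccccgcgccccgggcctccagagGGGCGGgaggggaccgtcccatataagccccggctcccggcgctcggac

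The motifs, searched on both strands with overlapping matches kept, were the TATA box (TATAAA), the GC box (GGGCGG), the CCAAT box (CCAAT), the AP-1 motif (TGANTCA), the cyclic AMP response element (TGACGTCA) and a core of the interferon-stimulated response element. POSTN has a TATA box 29 to 24 bases before its start, an AP-1 match and an interferon response core match, and a GC content of 36.4%. Of 27305 promoters of the same length, 11.1% hold the TATA box, 6.60% the AP-1 motif and 3.07% the interferon response core. POSTN was the only member with a match to any of these. FN1 has 6 GC box matches, some of them overlapping, a CCAAT box and the cyclic AMP response element, which 1.77% of all promoters hold. FBN1, SPARC and LAMA4 hold none of the 6 motifs in this window. The GC box was found in 6 members, FN1, THBS1, LAMB1, LAMC1, NID1 and TNC (42.3% of all promoters), and the CCAAT box in FN1, THBS1 and NID1 (33.0%). Whether the motifs go with the differences between the groups was not tested. A match is not evidence of binding.

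Other genes of the matrix were counted in 8 lists, where rose and fell mean past the limma adjusted p of 0.05. Over all tested genes 1.28% passed it upward and 0.477% downward. At an unadjusted p under 0.05, 8.98% were higher and 8.15% lower. Of 15 tested basement membrane genes other than the members, 2 rose and 0 fell, the type IV collagen chain genes COL4A1 (155 ± 4.49 FPKM in shALKBH3 and 85.8 ± 9.92 FPKM in NC) and COL4A4 (8.34 ± 0.377 FPKM in shALKBH3 and 3.84 ± 0.588 FPKM in NC, SD, n = 3 each). Their limma adjusted p-values were 0.017 and 0.023, and the median log2 difference of the 15 genes was 0.26. These collagens form the network that nidogen joins to laminin. By the unadjusted p 7 of the 15 genes were higher and 1 lower. Of 21 other tested matrix glycoproteins, 7 were higher and 2 lower by the unadjusted p, with a median of 0.09. By the adjusted p 1 rose and 0 fell. The riser was MATN2, a matrilin that bridges matrix filaments (81.7 ± 7.41 FPKM in shALKBH3 and 52.9 ± 3.32 FPKM in NC, SD, n = 3 each, log2 0.62, adjusted p = 0.040).

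Among 23 tested matrix receptors 10 were higher and 1 lower by the unadjusted p, with a median of 0.26. By the adjusted p 0 fell and 1 rose. It was SDC2, a cell surface heparan sulfate proteoglycan, at 13.2 ± 0.129 FPKM in shALKBH3 and 8.16 ± 0.387 FPKM in NC (SD, n = 3 each, log2 0.63, limma adjusted p = 0.025). Of 24 tested genes of matrix cross-linking, folding and secretion, 9 were higher and 4 lower by the unadjusted p, with a median of 0.20. By the adjusted p 0 fell and 1 rose. It was the collagen prolyl hydroxylase gene P4HA1 (log2 0.52, adjusted p = 0.032).

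Of 9 tested interstitial and fibril-associated collagen genes 0 passed in limma; 5 had an unadjusted p under 0.05 and a positive difference, 1 a negative one, and their median was 0.23. Over all tested genes 8.98% were higher and 8.15% lower by that p. COL1A2 (0.464 ± 0.160 FPKM in shALKBH3) and COL3A1 (0.248 ± 0.0703 FPKM in shALKBH3, SD, n = 3 each) had log2 differences of -0.93 and -1.03 that rested on NC replicate 1. In it they were at 7.22 and 5.46 FPKM, while the other controls were below 1 FPKM. The smallest adjusted p-values there were those of COL5A2 (log2 difference 0.79, adjusted p = 0.086) and COL11A1 (0.81, adjusted p = 0.11). Of 26 tested matrix proteases and inhibitors 0 passed; by the unadjusted p 7 were higher and 2 lower, against the same shares of all tested genes, and their median was 0.13. Their smallest adjusted p-values belonged to the metalloproteinase inhibitor genes TIMP2 (log2 difference 0.54, adjusted p = 0.066) and TIMP3 (0.32, adjusted p = 0.10). Of 17 tested TGF-beta pathway genes 0 passed; by the unadjusted p 0 were higher and 2 lower, and their median was -0.11. PMEPA1 (log2 difference -0.39, adjusted p = 0.12) and the inhibitory SMAD7 (-0.40, adjusted p = 0.26), both induced by TGF-beta, had the smallest. The 1 tested proteoglycan of the list, SRGN, had a log2 difference of -0.19 (adjusted p = 0.27).

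**Figure D5:**
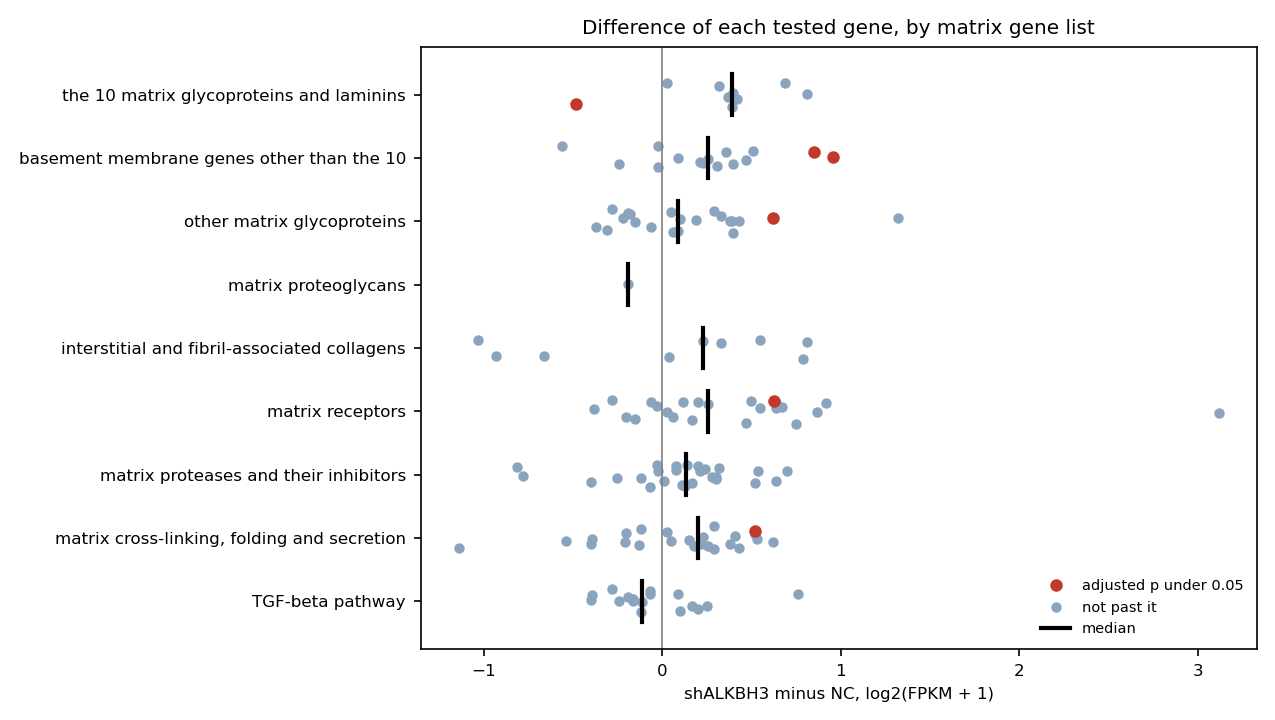
Log2 difference between shALKBH3 and NC for each tested gene (points) of the 10 matrix glycoproteins and laminins and of 8 other matrix lists, with the list median as a bar and genes at an adjusted p under 0.05 in red. SPARC is the only red point below 0, and the medians run from -0.19 (proteoglycans, 1 gene) to 0.39 (the 10 genes).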

How the data were processed

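Total RNA was sequenced in 3 shALKBH3 and 3 NC samples of the 92.1 line. Per the labels' protocols, cDNA was random-primed from fragmented RNA, with dUTP in the second strand. The authors deposited FPKM per transcript, per the file headers. The submitters' processing notes name hg19, HTSeq 0.6.0 and DESeq2 without their roles. Which tool gave the FPKM, and with which aligner and annotation, is not stated in the sources used. The tables list the same 28900 transcripts, and in each of these the higher group mean is at least 0.5 FPKM. Depth is unknown, so no counting interval is given.

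Of the transcripts 28796 (99.6%) matched GENCODE release 29 by identifier without version, and FPKM were summed per gene. Those averaging 1 FPKM or more were tested as log2(FPKM + 1), without rescaling, so fold changes of low genes are understated. The test was limma 3.58.1 in R 4.3.3 with a variance trend, two-sided, with Benjamini-Hochberg adjustment over all tested genes and a threshold of 0.05. The test was checked on simulated data with independent genes and no effect of length or GC content. That check therefore does not cover the length trend seen here. The length and GC correction subtracted, in each library, a loess fit (span 0.3) of the log2 deviations from the mean of the 6 libraries. Python 3.11.15, pandas 2.3.3, numpy 2.4.6, scipy 1.17.1 and matplotlib 3.10.9 were used for the rest. Pearson correlations of log2 gene values between libraries ran from 0.958 to 0.970 within and from 0.939 to 0.963 between groups.

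The members and lists were chosen with earlier results of these data known. Named outside the members are ALKBH3, the cell type markers and, of each list, up to 6 genes past the threshold or, with none past it, the 2 with the smallest adjusted p. Alternatives changed the pseudocount, filter, scaling, variance model, gene value, length and GC correction, replicate block and libraries.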

Additional observations from a re-analysis of the deposited data

How the results depend on the processing

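Over 17 settings for each of the 10 members, the main one aside, 148 of 170 results kept their sign and their side of the threshold, 12 lost the call, 3 gained one and 7 changed sign. The 12 were all SPARC, whose log2 change stayed between -0.55 and -0.39, and the 3 were FBN1 (0.81 with a minimum mean of 5 FPKM and 0.66 after the length and GC correction) and THBS1 (0.29 after it). With the replicate block the adjusted p was 0.15 for SPARC, and with the block and the correction it was 0.081 for SPARC, 0.15 for FBN1 and 0.20 for THBS1. The 7 were FN1 (-0.06 with the most abundant transcript, -0.07 after the length and GC correction with and without the replicate block, -0.07 without shALKBH3 replicate 3, -0.19 without NC replicate 3, within a range of -0.19 to 0.15 when 1 library was left out, and -0.26 without it and with the correction) and NID1 (-0.06 with the most abundant transcript). The median of the members lay between 0.30 and 0.48 in every setting planned beforehand. It was not taken for the correction without NC replicate 3. There the middle values of the 10 members were 0.25 (LAMB1) and 0.27 (TNC), below that range. Members past the threshold upward numbered 1 with a minimum mean of 5 FPKM, 2 after the length and GC correction and 0 in the other settings, main included. Downward there was 1 in the main setting, and 0 after rescaling to equal totals, under quantile normalization, without the variance trend, with the replicate block alone or with the correction, and without any 1 library (0 to 0).

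Over all genes the counts of 134 higher and 50 lower became 80 and 25 with the most abundant transcript, 17 and 3 with the replicate block, and 38 and 4 with the block and the correction. Lower genes numbered 24 after rescaling and 27 without the variance trend. Leaving out 1 library gave 39 to 87 higher and 9 to 22 lower. The cause of these changes was not tested. Leaving out 1 library leaves fewer samples, and the replicate block leaves fewer degrees of freedom, while the other settings keep all 6 libraries and the same design. The replicate number is no pairing by the labels, and same-numbered samples had correlations of their deviations from the group means of -0.088, 0.075 and -0.012. With the most abundant transcripts the differences in laminin ratios were -0.43 for NID1 to LAMC1, 0.55 for LAMA4 to LAMB1, 0.41 for LAMA4 to LAMC1 and -0.14 for LAMB1 to LAMC1. Leaving out 1 library, an alternative added after the data were seen, gave differences of -0.06 to 0.10 for LAMA4 to LAMC1, -0.12 to 0.03 for LAMB1 to LAMC1, -0.10 to 0.21 for LAMA4 to LAMB1 and -0.03 to 0.08 for NID1 to LAMC1. The sign changed without NC replicate 3 for each ratio but NID1 to LAMC1, which changed sign without NC replicate 2. The corrected list medians, the corrected counts and the correction without NC replicate 3 were also added then. DESeq2 was not run because the values are not counts.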

Other observations

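Genes outside the naming rule were looked at after their values had been seen, among proteins that bind or resemble the 10. TGFBI, which encodes a relative of periostin with the same repeated domain, was at 746, 706 and 691 FPKM in shALKBH3 replicates 1, 2 and 3, against 250, 626 and 149 FPKM in NC replicates 1, 2 and 3. The controls differed among themselves by more than NC replicate 2 differed from the knockdown libraries (log2 difference 1.32, limma adjusted p = 0.26). Of the laminin receptor genes, ITGA6, ITGB4, ITGB1 and DAG1 had positive differences without passing, while ITGA3 (log2 difference 0.20), ITGA7 (0.06) and ITGA2 (0.03) were nearer 0 and BCAM was at -0.38. ITGA6, the alpha-6 integrin chain, was at 52.4 ± 10.6 FPKM in shALKBH3 and 28.4 ± 7.18 FPKM in NC, ITGB4, its beta-4 partner, at 27.3 ± 5.83 FPKM in shALKBH3 and 13.7 ± 1.49 FPKM in NC, and ITGB1 at 704 ± 98.5 FPKM in shALKBH3 and 449 ± 27.6 FPKM in NC (SD, n = 3 each, limma adjusted p = 0.14, 0.075 and 0.068). DAG1, which encodes the laminin-binding dystroglycan, was at 26.3, 21.5 and 27.4 FPKM in shALKBH3 replicates 1, 2 and 3, against 0.450, 0.340 and 12.7 FPKM in NC replicates 1, 2 and 3. Its log2 difference of 3.12 did not pass (adjusted p = 0.17), and NC replicate 3 stood apart from the other controls. CD44, a receptor for hyaluronan, had a log2 difference of -0.06 (155 ± 0.835 FPKM in shALKBH3 and 162 ± 7.24 FPKM in NC, SD, n = 3 each, adjusted p = 0.63).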
